A study of Mus musculus with 8 samples.

Results

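The 10 genes described here encode zinc-dependent histone deacetylases. They were found in the transcript count table by their symbols, Hdac1 to Hdac9 and Hdac11, and made up 10 of its 22163 genes and 12 of its 28157 rows, an identifier without a symbol counting as a gene of its own. Each gene was represented by its row of highest count summed over the 8 libraries. Hdac5 had a second row with 3622 counts beside the 3623 of the row used, and both rows of Hdac6 held 463, so that isoforms of these genes were not told apart. Low counts left Hdac8 out of the tests between times, tissues and training, in which the other 9 genes were tested. The filter of the interaction tests kept all 10.

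The libraries held polyribosome-associated mRNA, that is messages that sediment with several ribosomes, from C57Bl/6 mice of 7 to 9 weeks. The conditioned mice had gone through contextual fear conditioning, in which a chamber is paired with a foot shock, and the control mice had been exposed to the context alone. Conditioned mice and control mice were each represented at 6 h and at 1 h after the session, in hippocampus and in cortex, which makes 8 libraries with 1 in each combination. The cortex was labelled Frontal Cortex and its dissection described as prefrontal cortex. No combination had a replicate. The labels do not say how many animals went into a library, although the design text speaks of 8 mice and of the prefrontal cortex alone. P-values therefore measure only the spread between these libraries, part of which may be technical.

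Histone deacetylases remove acetyl groups from lysines of histone tails and of other proteins, and acetylated histones go with open chromatin and transcription. The class I enzymes Hdac1, Hdac2, Hdac3 and Hdac8 are mainly nuclear, and all but Hdac8 act within corepressor complexes. The class IIa proteins Hdac4, Hdac5, Hdac7 and Hdac9 have little enzyme activity of their own, bind MEF2 transcription factors and move out of the nucleus on 14-3-3 proteins when CaM kinases or protein kinase D phosphorylate them, which ties them to neuronal activity. Hdac6, of class IIb, is mostly cytoplasmic and deacetylates tubulin, and Hdac11 is the sole class IV member. In mice, loss of Hdac2 or of Hdac3 in the brain strengthens contextual memory, and loss of Hdac4 weakens it.

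Total counts ran from 2370973 to 5296986 per library, and the members held 68 to 4146 counts each over the 8 libraries. The conditioned 1 h libraries labelled hippocampus and prefrontal cortex differed by no more than sampling noise. The ratio of the variance between them to that expected from counting was 1.07 over 12731 genes, against 4.45 for the next closest pair of libraries, and no gene differed at an adjusted p under 0.05. The lowest unadjusted p among the members was 0.217. They were counted as 1 sample, and the tests used the other 6 libraries. The hippocampus control 6 h library was the shallowest, with 8.01% of its counts in Kif5c, a kinesin heavy chain. The hippocampus conditioned 6 h library had 0.545% of its counts there, and the remaining libraries 0.0382% to 0.0711%. The summed level of 8 hippocampal neuron markers was 570.4 to 1099.8 CPM (counts scaled to library size) in the other 3 hippocampus libraries and 82.4 to 98.8 CPM in the other 3 cortex libraries. In the conditioned 1 h pair it was 322 CPM under the hippocampus label and 314 CPM under the cortex label, between those ranges. All CPM values are scaled by TMM factors.

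The members' coding sequences differ in base composition, which the change with time is set against further on, and the first 40 codons of 4 of them are shown with G or C at the last position of the codon in capitals. Hdac5 and Hdac11 are the members that passed the test between times, and Hdac2 and Hdac9 are those that were higher in every 6 h library than in any 1 h library. The sequences are those of the GENCODE transcripts (GRCm38) matched to the rows counted.
Hdac5: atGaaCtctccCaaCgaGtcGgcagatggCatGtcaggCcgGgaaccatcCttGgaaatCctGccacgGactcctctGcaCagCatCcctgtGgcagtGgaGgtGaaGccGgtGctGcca
Hdac11: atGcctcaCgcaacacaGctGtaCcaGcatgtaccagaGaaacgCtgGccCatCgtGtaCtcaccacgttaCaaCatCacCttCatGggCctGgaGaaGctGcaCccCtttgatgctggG
Hdac2: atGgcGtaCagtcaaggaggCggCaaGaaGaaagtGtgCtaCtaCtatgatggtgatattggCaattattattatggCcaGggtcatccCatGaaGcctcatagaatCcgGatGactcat
Hdac9: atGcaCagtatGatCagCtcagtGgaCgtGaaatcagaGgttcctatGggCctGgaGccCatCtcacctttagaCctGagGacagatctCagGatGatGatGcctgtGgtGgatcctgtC
Of these 40 codons, 27 end in G or C in Hdac5, 27 in Hdac11, 20 in Hdac2 and 26 in Hdac9. Over the whole coding sequence the share of last codon positions with G or C was 72.7% in Hdac5, 72.7% in Hdac11, 38.2% in Hdac2 and 53.3% in Hdac9. Whole transcripts had a GC content of 60.9% in Hdac5, 60.8% in Hdac7, 57.4% in Hdac11, 54.6% in Hdac6, 52.5% in Hdac4, 50.2% in Hdac3, 50% in Hdac1, 48.7% in Hdac8, 44.4% in Hdac2 and 41.7% in Hdac9. The low value of Hdac9 goes with a 3′ untranslated region of 2330 bases at 33.9% GC.

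The row counted for Hdac9 corresponds to a transcript that encodes 588 residues, whereas the longest protein annotated for the gene has 1067. Short forms of Hdac9 of this kind, known as MITR or HDRP, keep the part that binds MEF2 and lack the deacetylase domain. It was the sole Hdac9 row of the table, so the counts do not separate the short form from the full enzyme. Hdac1 and Hdac2 are the closest pair of members, with 86.7% identical residues. Their coding sequences are 75.7% identical and share no identical run longer than 17 bases. Hdac5 shares 63.2% of its residues with Hdac4, 55.2% with the 588-residue Hdac9 and 51.4% with Hdac7, and the longest identical run between coding sequences of these pairs was 36 bases, between Hdac5 and Hdac7.

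The promoters of 3 members are shown, as RefSeq lists them on GRCm38.p6, from 250 bases before to 50 bases after the start, with CpG dinucleotides in capitals. They are those of Hdac5 and Hdac11, and of Hdac9 at the start whose window holds CTA and TAG with any 4 bases between them. The site that MEF2 factors bind has A or T at these 4 bases, so the pattern searched was looser than that site. Hdac9 is a known target of MEF2 in muscle.
Hdac5 (chr11:102230123-102230422): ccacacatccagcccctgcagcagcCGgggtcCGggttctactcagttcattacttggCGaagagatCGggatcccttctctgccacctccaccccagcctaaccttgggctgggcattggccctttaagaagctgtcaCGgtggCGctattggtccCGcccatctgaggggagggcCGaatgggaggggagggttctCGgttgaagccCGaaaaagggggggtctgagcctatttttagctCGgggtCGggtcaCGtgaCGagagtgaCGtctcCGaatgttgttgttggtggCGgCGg
Hdac11 (chr6:91156565-91156864): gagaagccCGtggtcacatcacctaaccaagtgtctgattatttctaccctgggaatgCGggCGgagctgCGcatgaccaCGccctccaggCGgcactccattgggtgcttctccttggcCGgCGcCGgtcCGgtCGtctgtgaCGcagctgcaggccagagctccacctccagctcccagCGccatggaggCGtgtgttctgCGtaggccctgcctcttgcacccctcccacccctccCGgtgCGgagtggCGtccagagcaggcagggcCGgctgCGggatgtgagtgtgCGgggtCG
Hdac9 (chr12:34528840-34529139): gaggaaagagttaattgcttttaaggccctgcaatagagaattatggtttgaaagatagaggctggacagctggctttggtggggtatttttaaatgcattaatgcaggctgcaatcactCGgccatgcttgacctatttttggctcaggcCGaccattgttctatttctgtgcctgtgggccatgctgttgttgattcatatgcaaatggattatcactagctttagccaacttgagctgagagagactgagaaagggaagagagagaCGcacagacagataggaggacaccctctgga
Hdac5 lies on the minus strand of chromosome 11, Hdac11 on the plus strand of chromosome 6 and Hdac9 on the minus strand of chromosome 12. The Hdac5 window has 18 CpG and the Hdac11 window 22, against 3 in this Hdac9 window and 0 in the window of the other Hdac9 start listed. The Hdac2 promoter has 36. Over 32851 promoters of the same length the median was 7. The looser pattern, CTA and TAG with any 4 bases between them, reads the same on both strands. It was found in this Hdac9 window, which was chosen for it, but not in that of the other Hdac9 start. The windows of Hdac5 and Hdac2 held it too, and no other window of the 8 members searched did. Of all promoters, 3.7% held it. The 4 bases were TTTT in Hdac5, GCTT in Hdac9 and CCCG in Hdac2, so only Hdac5 had A or T at all of them. TGACG, the core of the site bound by CREB, was searched on both strands. It occurred 2 times in the Hdac5 window, 1 time in that of Hdac11 and 3 times in that of Hdac4, and 20.8% of all promoters hold it. The full palindrome TGACGTCA, which contains TGACG, was in none of the windows of the 8 members searched, Hdac1 and Hdac3 not being among them, and in 1.8% of all promoters. These are matches of letters, not measured sites.

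Per length of transcript, Hdac11 and Hdac2 stood highest and Hdac7 and Hdac8 lowest. Over the 6 libraries the level averaged 41.0 ± 15.3 CPM per kb for Hdac11, 37.9 ± 11.3 for Hdac2, 28.7 ± 10.6 for Hdac9 and 23.4 ± 14.9 for Hdac5 (SD, n = 6, across tissues, times and training). Below these 4 came Hdac3 at 11.8 ± 4.64 CPM per kb, Hdac1 at 6.502 ± 1.71, Hdac4 at 6.15 ± 2.28 and Hdac6 at 3.02 ± 1.02. Hdac8 averaged 0.977 ± 0.154 and Hdac7 0.673 ± 0.281 CPM per kb. The ranges of all neighbours in this order overlapped, except those of Hdac6 (2.30 to 5.07 CPM per kb) and Hdac8 (0.824 to 1.18 CPM per kb). When the mean was taken over all 8 libraries as labelled, 6 members kept their rank, with Hdac5 passing Hdac9 and Hdac4 passing Hdac1. The order also differed between the times. Hdac5 lay above Hdac2 in every 1 h library, at 33.2 to 46.7 against 20.9 to 25.5 CPM per kb. It lay below Hdac2 in every 6 h library, at 5.28 to 25.5 against 39.6 to 52.1 CPM per kb.

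**Figure D1:**
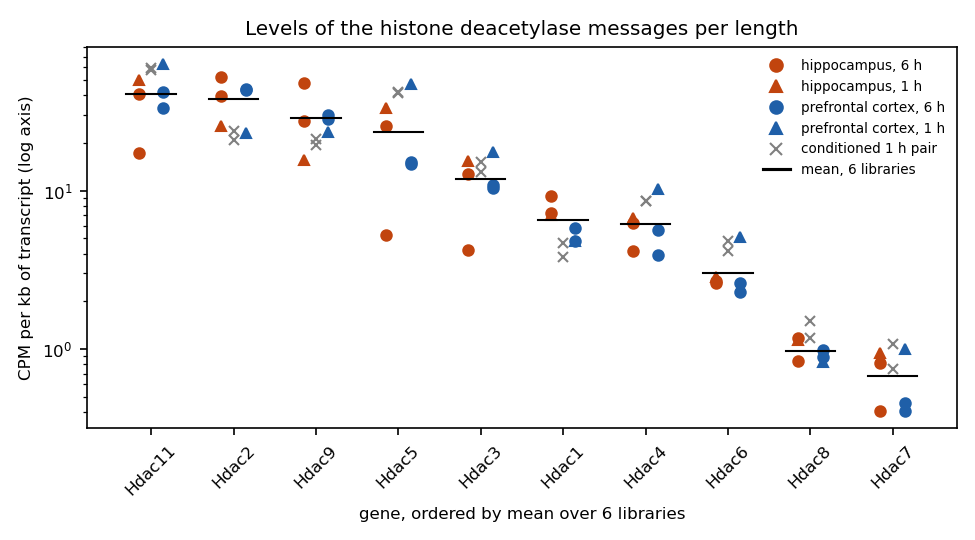
Level of each member in CPM per kb of transcript on a log axis, by library, in order of the mean over 6 libraries (bar). Colour gives the tissue and shape the time, and crosses are the conditioned 1 h pair. Hdac11 averaged 41.0 CPM per kb and Hdac7 0.673, and Hdac5 spread most widely, from 5.28 to 46.7 CPM per kb.

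Between 6 h and 1 h, Hdac5 and Hdac11 fell, and no member rose past the threshold of the test. Among class I, Hdac2 had 79.3 and 104 CPM in the conditioned and control hippocampus at 6 h and 87.8 and 86.4 CPM in the conditioned and control cortex at 6 h. At 1 h it had 51.1 CPM in control hippocampus, 46.2 CPM in control cortex, and 47.5 and 41.9 CPM in the conditioned pair, the library labelled hippocampus before that labelled cortex as in what follows. Every 6 h library was thus above every 1 h library, with a mean of 89.5 ± 10.7 CPM at 6 h (SD, n = 4) and 47.3 ± 3.32 CPM at 1 h (SD, n = 3, the pair counted once). The fitted log2 change was 0.97 (SE 0.39) with an adjusted p of 0.0706 in edgeR's quasi-likelihood test, which misses the threshold of 0.05.

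Hdac3, the catalytic subunit of the NCoR and SMRT corepressor complexes, had 25.7 and 8.57 CPM in the conditioned and control hippocampus at 6 h and 22.0 and 21.0 CPM in the conditioned and control cortex at 6 h. At 1 h it had 31.4 CPM in control hippocampus, 35.6 CPM in control cortex, and 26.5 and 31.0 CPM in the conditioned pair. All 6 h libraries lay below all 1 h libraries, and the hippocampus control 6 h library, with 15 counts, lay lowest. The log2 change was -1.18 (SE 0.46, adjusted p = 0.0648), and -0.63 (adjusted p = 0.435) without that library. Without the cortex control 6 h library, which leaves the hippocampus one as the sole 6 h control, it was -1.97. It passed with a filter of at least 1 CPM in every library, at -1.24 (adjusted p = 0.046). Hdac1, the close relative of Hdac2, averaged 13.8 ± 3.92 CPM at 6 h (SD, n = 4) and 10.9 ± 3.02 CPM at 1 h (SD, n = 3), groups that overlapped, with a log2 change of 0.33 (SE 0.47, adjusted p = 0.623). Hdac8, an X-linked class I enzyme, had 4 to 12 counts in every library and averaged 1.89 ± 0.291 CPM at 6 h (SD, n = 4) and 2.13 ± 0.501 CPM at 1 h (SD, n = 3), which is too few counts for a difference to be detectable at this depth.

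Among class IIa, Hdac5 moved most. It had 96.7 CPM in conditioned hippocampus, 19.99 CPM in control hippocampus, 55.7 CPM in conditioned cortex and 57.4 CPM in control cortex at 6 h. At 1 h it had 126 CPM in control hippocampus, 177 CPM in control cortex, and 158 and 157 CPM in the conditioned pair. The 6 h values all lay below the 1 h values and were widely spread, with control hippocampus lowest, whereas the 1 h values lay closer together. Hdac5 fell by 1.99 on the log2 scale (SE 0.47, adjusted p = 0.0074, edgeR). The counting ratio of 6 h to 1 h control libraries was 0.324 in cortex (95% interval 0.282 to 0.372, counting error only) and 0.159 in hippocampus (0.11 to 0.224). The controls of both tissues thus had less Hdac5 at 6 h. Without the hippocampus control 6 h library the log2 change was -1.31, with the cortex library as the sole 6 h control. Without the cortex control 6 h library it was -3, with the shallow hippocampus library as the sole 6 h control. Without the cortex or the hippocampus control 1 h library it was -1.88 or -2.08 and missed the threshold. With no training term the log2 change was -1.37 (adjusted p = 0.0853).

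Hdac4, the class IIa protein whose loss impairs memory in mice, averaged 40.4 ± 9.20 CPM at 6 h (SD, n = 4) and 68.9 ± 14.1 CPM at 1 h (SD, n = 3). Its log2 change was -0.78 (SE 0.42, adjusted p = 0.169), though the groups did not overlap. Leaving out 1 library at a time, it ran from -1.11 to -0.36, the latter without the cortex control 1 h library. With all 8 libraries as labelled -0.74 passed (adjusted p = 0.0305). That fit enters the conditioned 1 h pair as separate libraries, although the pair differed by no more than sampling noise. Hdac9 was the sole class IIa member with higher values at 6 h. It had 120.5 and 210.1 CPM in the conditioned and control hippocampus at 6 h and 132 and 124 CPM in the conditioned and control cortex at 6 h. At 1 h it had 69.0 CPM in control hippocampus, 103 CPM in control cortex, and 93.1 and 85.0 CPM in the conditioned pair. The groups did not overlap and the hippocampus control 6 h library stood apart upwards, and the log2 change was 0.95 (SE 0.41, adjusted p = 0.0929), or 0.40 (adjusted p = 0.556) without that library. Without the cortex control 6 h library, which leaves the hippocampus one as the sole 6 h control, it was 1.49. With all 8 libraries as labelled, the pair again entered as separate libraries, the log2 change was 0.74 and passed (adjusted p = 0.0321). Without the hippocampus control 1 h library it was 0.50 (adjusted p = 0.713). Hdac7, which is best known from endothelium and thymocytes, had 3 to 20 counts per library, with a mean of 2.21 ± 0.848 CPM at 6 h (SD, n = 4) and 4.03 ± 0.207 CPM at 1 h (SD, n = 3), and a log2 change of -1.20 (SE 0.70, adjusted p = 0.201).

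Hdac11 fell as well. It had 108 CPM in conditioned hippocampus, 45.7 CPM in control hippocampus, 112 CPM in conditioned cortex and 87.9 CPM in control cortex at 6 h. At 1 h it had 133 CPM in control hippocampus, 166 CPM in control cortex, and 154 and 159 CPM in the conditioned pair. Every 6 h library lay below every 1 h library, and Hdac11 fell by 1.19 on the log2 scale (SE 0.40, adjusted p = 0.0354, edgeR). Without the hippocampus control 6 h library the log2 change was -0.82 and no longer passed (adjusted p = 0.189). Without the cortex or the hippocampus control 1 h library it was -1.28 or -1.12, with an adjusted p of 0.267 or 0.356. It also missed the threshold with no training term, at -0.75 (adjusted p = 0.157), and with the rows of each gene summed, at -1.16 (adjusted p = 0.0506). Hdac6, the tubulin deacetylase, averaged 10.6 ± 0.7 CPM at 6 h (SD, n = 4) and 17.1 ± 4.81 CPM at 1 h (SD, n = 3), with a log2 change of -0.67 (SE 0.50, adjusted p = 0.318). It was -0.14 without the cortex control 1 h library, -0.34 without the cortex control 6 h library and -1.1 without the hippocampus control 1 h library. With all 8 libraries as labelled, the pair entered as separate libraries, -0.71 passed (adjusted p = 0.0489).

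**Figure D2:**
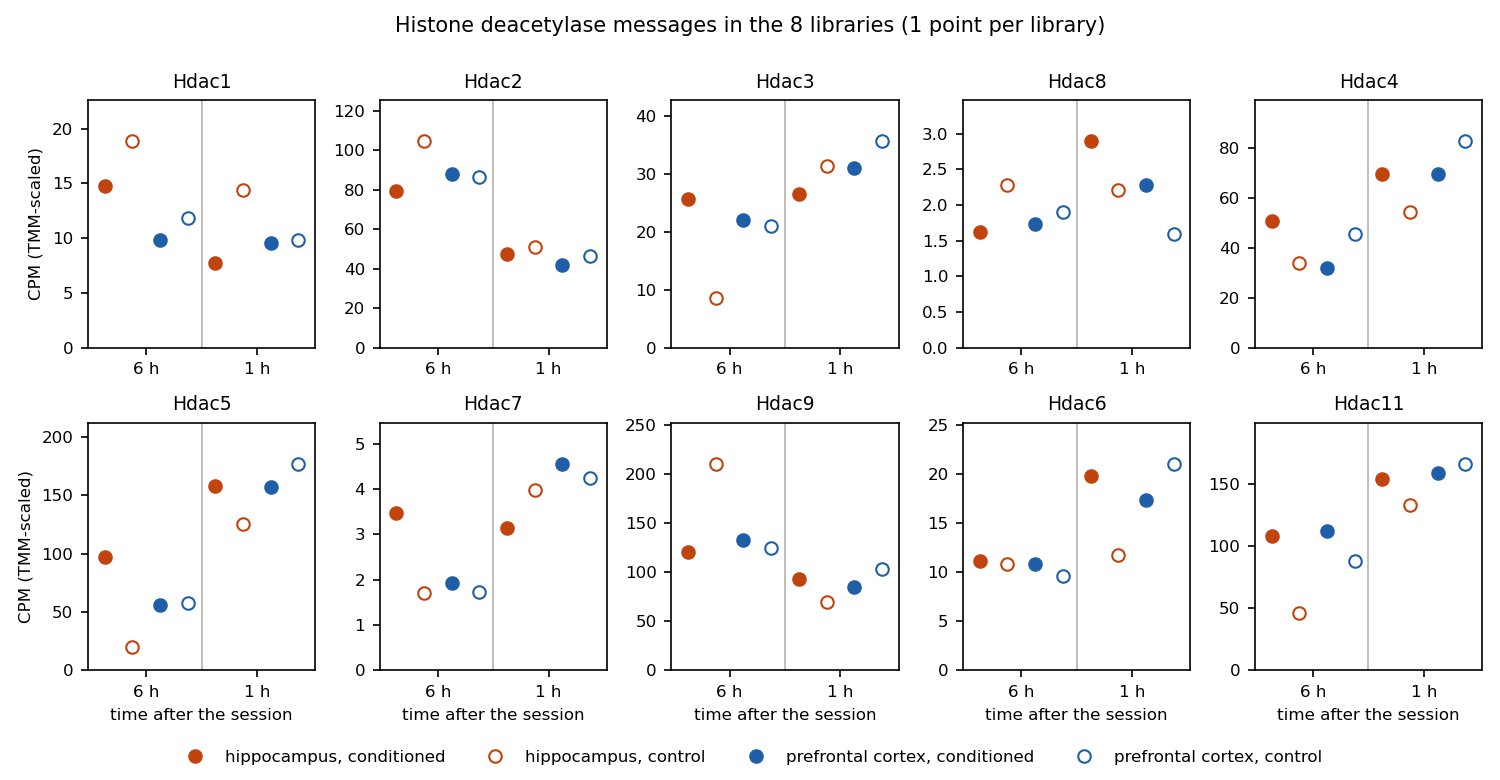
CPM of each of the 10 members in the 8 libraries, 1 point per library, 6 h left of 1 h in each panel, with hippocampus in orange, cortex in blue, filled points for conditioned and open points for control mice. Hdac2 and Hdac9 were higher in all 6 h libraries and Hdac5 and Hdac11 lower, and Hdac5 and Hdac3 were lowest in the hippocampus control 6 h library.

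In all, 2 of the 9 tested members passed between 6 h and 1 h, both lower. Of all 16123 rows tested, 23.3% passed, 13% higher and 10.3% lower, so the members' share was near that of the table. The members' median log2 change was -0.78, against -0.03 over all rows. Of the 10 members, 2 were higher and 6 lower in every 6 h library than in any 1 h sample. Of the 12062 genes that passed the low-count filter, 23.6% were higher and 22.5% lower in this way. Hdac8, which did not pass that filter, was neither. The time effect was estimated from the 4 control libraries, since the conditioned 1 h pair was not in the fit. With the pair summed to 1 sample and added, Hdac5 had a log2 change of -1.58 (adjusted p = 0.0137) and Hdac11 of -0.91 (adjusted p = 0.0257), and Hdac2 passed as well, at 0.95 (adjusted p = 0.0133). The libraries were bulk polyribosome-associated mRNA, with no library of total RNA beside them. Fewer cells of a type, less RNA per cell and a smaller share of a message on polyribosomes therefore cannot be told apart.

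The change with time moved with base composition. Over 11698 genes, the log2 change between 6 h and 1 h had a Spearman correlation of -0.75 with transcript GC content, and over the 9 members of -0.92. Both are descriptions across genes of the same libraries, and genes are not independent replicates. Among genes within 1 percentage point of the GC content of Hdac11 the median log2 change was -1.11, beside the -1.19 of Hdac11 itself. For Hdac2 the neighbours' median was 0.84, beside 0.97, and for Hdac9 it was 1.13, beside 0.95. These 3 members therefore lay close to the median of genes like them in composition. Hdac5 lay further out, at -1.99 where the quartiles of its neighbours were -1.79 and -0.89 and 17.5% of them were lower. Hdac3 lay furthest, at -1.18 where its neighbours had a median of 0.01 and 7.7% of them were lower.

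**Figure D3:**
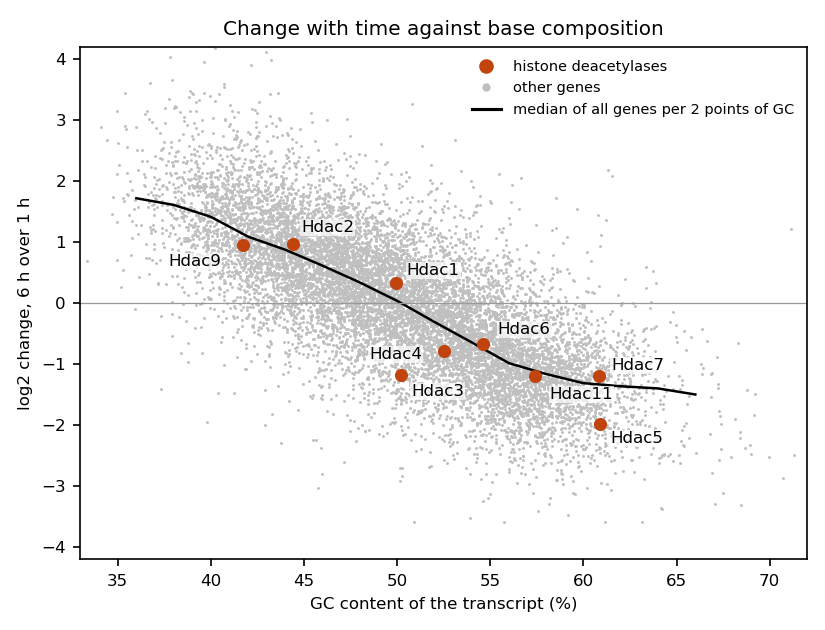
Fitted log2 change between 6 h and 1 h (y axis) against transcript GC content in percent (x axis) for 11698 genes (grey), with the 9 tested members in orange and the median of all genes as a black line. 3 genes lie outside the axes. Most members lie near the line, and Hdac3 and Hdac5 lie below it.

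With the trend on GC content and length taken out of each library, none of the 9 members passed, where 4.7% of 15653 rows did, 3.48% higher and 1.21% lower. The log2 change of Hdac5 was then -0.88 (adjusted p = 0.119), that of Hdac11 -0.24 (adjusted p = 0.668) and that of Hdac2 0.29 (adjusted p = 0.607). Hdac9 changed sign, to -0.25. Hdac3 kept nearly its whole change, -1.11 (adjusted p = 0.102), and Hdac4 was at -0.75 (adjusted p = 0.193). Hdac6 and Hdac7 were both at -0.17. The summed level of 6 neuronal markers also moved with time, at 17306 to 28735 CPM in the 6 h libraries and 7695 to 10511 CPM in the 1 h libraries, with none of the 6 at 0 in any library. In the counts as deposited Snap25 and Gad2 rose and Slc17a7 fell. With the trend removed none of these 3 passed, and Rbfox3 did, at 1.55 (adjusted p = 0.0127). The summed level of 6 astrocyte markers separated the times too, at 1149 to 1571 CPM in the 6 h libraries and 797 to 976 CPM in the 1 h libraries, with Aqp4 higher and Gfap lower in the counts as deposited and neither past the threshold with the trend removed. That of 7 oligodendrocyte markers overlapped between the times, and of these Mal rose and Mbp and Mag fell in the counts as deposited. With the trend removed Mobp passed among these 7, at 1.11 (adjusted p = 0.0498). The part of these markers in the members' changes was not tested.

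Between hippocampus and prefrontal cortex no member passed the test. That was 0 of 9, where 3.72% of 16123 rows did, 1.72% higher and 2% lower, and 2172 rows had an unadjusted p under 0.05. Hdac1 was highest relative to cortex, with 14.8, 18.8 and 14.4 CPM in hippocampus (conditioned 6 h, control 6 h and control 1 h) and 9.82, 11.8 and 9.83 CPM in the same conditions in cortex. It was the sole member whose groups did not overlap. Of the genes that passed the low-count filter, 6.61% were higher and 6.49% lower in this way. Hdac1 averaged 16.005 ± 2.47 CPM in hippocampus and 10.5 ± 1.15 CPM in cortex (SD, n = 3 each). The log2 change was 0.60 (SE 0.38, adjusted p = 0.569), between 0.40 and 0.63 in all 17 alternative settings and called in none. With the GC and length trend removed no member passed either, where 6.27% of rows did, 2.98% higher and 3.29% lower. Hdac11 had the largest difference in the other direction, with 95.4 ± 44.8 CPM in hippocampus and 122 ± 40.04 CPM in cortex (SD, n = 3 each), a log2 change of -0.43 (SE 0.32, adjusted p = 0.654).

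Of the other members, Hdac2 averaged 78.3 ± 26.7 CPM in hippocampus and 73.5 ± 23.6 CPM in cortex, and Hdac9 133 ± 71.4 CPM in hippocampus and 119.8 ± 14.97 CPM in cortex (SD, n = 3 each). Their log2 changes were 0.09 and 0.01. Hdac5 averaged 80.8 ± 54.7 CPM in hippocampus and 96.7 ± 69.6 CPM in cortex (SD, n = 3 each), with a log2 change of -0.36. These differences were smaller than the spread over times and training. Condition by condition, the ratio of hippocampus to cortex lay on both sides of 1 for every member except Hdac1 and Hdac11. For some of these members the counting intervals all included 1. The ratio of hippocampus to cortex for Hdac5 was 1.74 in conditioned 6 h libraries (95% interval 1.49 to 2.02), 0.348 in control 6 h libraries (0.238 to 0.495) and 0.711 in control 1 h libraries (0.634 to 0.796). For Hdac4 the same ratios were 1.60, 0.742 and 0.658, and for Hdac9 they were 0.912, 1.695 and 0.669. The intervals cover counting error only.

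Whether fear conditioning changed these messages could be tested at 6 h alone, with 2 conditioned and 2 control libraries. No member passed, and 0% of the 16123 rows did: 666 rows had an unadjusted p under 0.05, the lowest adjusted p was 0.911, and DESeq2 called 0 rows too. Hdac5 had the largest difference, a log2 change of 1.07 (SE 0.48, unadjusted p = 0.0349, adjusted p = 0.911). In hippocampus, 418 counts in the conditioned library stood against 35 in the control library, a scaled ratio of 4.84 (95% interval 3.42 to 7.04). In cortex, 289 counts in the conditioned library stood against 301 in the control library, a ratio of 0.970 (0.822 to 1.14). Without the hippocampus control 6 h library the log2 change was 0.29, and without the cortex control 6 h library it was 1.99. Each of these fits had a sole control library at 6 h. In the second it was the shallow hippocampus library rich in Kif5c. The test of the difference between tissues, which left 1 residual degree of freedom, gave a log2 interaction of 1.77 (SE 0.76, unadjusted p = 0.0258, adjusted p = 1).

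Hdac11 was higher in the conditioned library of both tissues, with a ratio of 2.36 in hippocampus (1.86 to 3.03) and 1.27 in cortex (1.12 to 1.44), and a log2 change of 0.77 (SE 0.40, adjusted p = 0.911). Hdac3 had a ratio of 2.997 in hippocampus (1.74 to 5.54) and 1.05 in cortex (0.798 to 1.37), with a log2 change of 0.71 (SE 0.47, adjusted p = 0.911). Leaving out 1 library at a time moved these changes to between 0.39 and 1.17 for Hdac11 and between 0.14 and 1.48 for Hdac3, lowest without the hippocampus control 6 h library and highest without the cortex control 6 h library in both, and neither passed. In hippocampus the 2 members with low GC content were lower in the conditioned library, with ratios of 0.573 for Hdac9 (0.501 to 0.657) and 0.759 for Hdac2 (0.633 to 0.913), and in cortex both were near 1, at 1.07 (0.956 to 1.19) and 1.02 (0.891 to 1.16). Hdac4 went in opposite directions, at 1.51 in hippocampus (1.13 to 2.05) and 0.7 in cortex (0.57 to 0.857), and its interaction had an unadjusted p of 0.115 and an adjusted p of 1. Hdac3, Hdac7 and Hdac11 were higher and Hdac8 lower in both conditioned libraries than in both control libraries. Of the 12062 genes that passed the low-count filter, 15.6% were higher and 13% lower in this way. Hdac8 did not pass that filter, and Hdac7 and Hdac8 had 15 or fewer counts in each 6 h library. Over 11698 genes the log2 change with conditioning had a Spearman correlation of 0.53 with GC content, and over the 9 members of 0.85, given as descriptions. With the trend on GC content and length removed the members' median log2 change was 0.02, against 0.13 before.

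**Figure D4:**
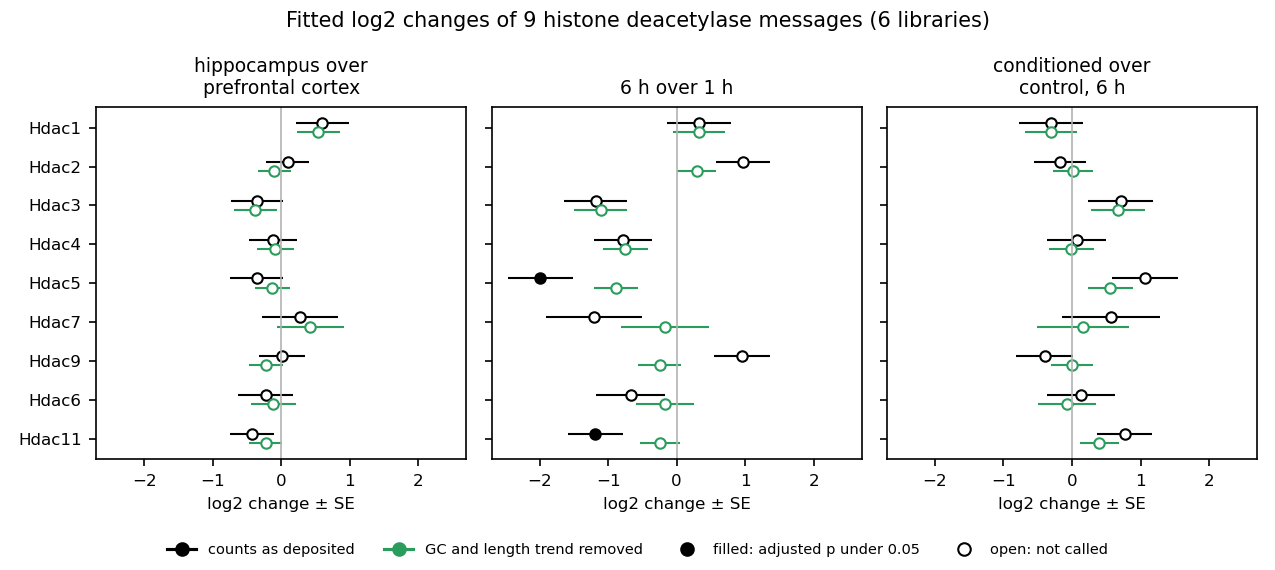
Fitted log2 change with its SE of the 9 tested members in hippocampus over prefrontal cortex, 6 h over 1 h, and conditioned over control at 6 h, from the counts as deposited (black) and with the GC and length trend removed (green). Filled points passed an adjusted p under 0.05, which Hdac5 and Hdac11 did between times in the counts as deposited and no member did otherwise.

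At 1 h there was no test of conditioning, because the conditioned libraries of the 2 tissues could not be told apart. Set against each control library, Hdac5 in the pair had a ratio of 1.25 in the library labelled hippocampus (95% interval 1.12 to 1.41) and 0.890 in that labelled prefrontal cortex (0.799 to 0.991). Hdac9 had 1.35 (1.16 to 1.57) under the hippocampus label and 0.824 (0.713 to 0.953) under the cortex label, and Hdac4 had 1.28 (1.07 to 1.52) and 0.844 (0.718 to 0.991) in the same order. Under the hippocampus label Hdac1 was lower, at 0.5369 (0.3402 to 0.832). Hdac6 was higher there, at 1.687 (1.18 to 2.431), and so was Hdac11, at 1.158 (1.034 to 1.297). Under the cortex label Hdac1 had 0.9734 (0.6107 to 1.557), Hdac6 0.8249 (0.5941 to 1.145) and Hdac11 0.9549 (0.8559 to 1.066). These cortex intervals, and those of Hdac2, Hdac3, Hdac7 and Hdac8 under both labels, included 1. The members' own levels in the pair were alike, with a ratio of the library labelled hippocampus to that labelled cortex of 1.00 for Hdac5 (0.898 to 1.12), 0.996 for Hdac4 (0.845 to 1.17) and 1.10 for Hdac9 (0.947 to 1.27). The control 1 h libraries they were set against differed, with 126 CPM of Hdac5 in hippocampus and 177 CPM in cortex.

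No member passed the test of whether its time effect differed between tissues: 0% of 16824 rows passed, 229 had an unadjusted p under 0.05, and the adjusted p of all 10 members was 1. The largest values were the log2 interactions of Hdac6, 0.95 (SE 1.01), and Hdac9, 0.90 (SE 0.88). For Hdac9 the 6 h to 1 h ratio in control libraries was 3.05 in hippocampus (95% interval 2.613 to 3.55) and 1.203 in cortex (1.06 to 1.37). For Hdac2 these ratios were close, 2.05 in hippocampus (1.68 to 2.50) and 1.87 in cortex (1.57 to 2.24). The interaction of tissue and training passed in 0% of rows too, with 425 at an unadjusted p under 0.05.

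Of the corepressor subunits that hold class I deacetylases, all 32 were tested, and 5 rose and 3 fell between 6 h and 1 h, with a median log2 change of 0.31. These are 8 of 32 where 23.3% of all rows passed, 13% higher and 10.3% lower, a share near that of the table. The largest rises were those of Arid4b (3.02, SE 0.50, adjusted p = 0.00197) and Arid4a (2.44, SE 0.45, adjusted p = 0.00262), subunits of the Sin3 complex. The largest falls were those of Mbd3 (-1.98, SE 0.53, adjusted p = 0.0127), which distinguishes a form of the NuRD complex, and Mier2 (-1.84, SE 0.56, adjusted p = 0.023), which binds Hdac1 and Hdac2. With the GC and length trend removed, 4 passed, all higher, where 3.48% of all rows were called higher. These were Arid4a (1.46, adjusted p = 0.0173), Arid4b (1.63, adjusted p = 0.0173), Mbd2 (2.7, adjusted p = 0.0173), a methyl-CpG binder of NuRD, and Ncor1 (1.23, adjusted p = 0.0393), the scaffold that binds Hdac3.

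Of the 18 partners, kinases and anchors of the class IIa proteins, 15 were tested, and 4 rose and 0 fell between 6 h and 1 h, where 13% of all rows rose and 10.3% fell. The largest rises were those of Camk4 (1.79, SE 0.40, adjusted p = 0.00552), a nuclear CaM kinase that phosphorylates class IIa deacetylases, and Ywhab (1.43, SE 0.41, adjusted p = 0.0182), a 14-3-3 protein. The others were Mef2a (1.29) and Mef2c (1.36). With the trend removed Camk4 alone passed, at 1.51 (adjusted p = 0.011). Between tissues Mef2c, a MEF2 factor of cortical neurons, fell by 2.52 on the log2 scale in hippocampus (SE 0.35, adjusted p = 9.81e-05), and with the trend removed it was at -2.68 (adjusted p = 4.8e-06). Camk4 then passed too, at -1.15 (adjusted p = 0.00607).

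Of 7 sirtuins, the NAD-dependent deacetylases, 6 were tested, and between times only Sirt3, the mitochondrial enzyme, passed among these 6, falling by 1.7 on the log2 scale (SE 0.58, adjusted p = 0.0388). Of 13 histone acetyltransferases, which add the groups that deacetylases remove, 1 rose, Kat6a (1.18, SE 0.40, adjusted p = 0.0373), and 0 fell. Of 7 bromodomain readers of acetyl-lysine, 1 rose, Brd7 (1.23, SE 0.41, adjusted p = 0.0365), and 0 fell. These counts stand beside the 23.3% of all rows that passed, and none is a result about its list. None of these 3 lists had a gene that passed once the trend was removed. In hippocampus against cortex none of the 3 and no corepressor passed, and the smallest p belonged to Sirt1 (log2 change 0.77, adjusted p = 0.458), Ncoa1 (0.53, adjusted p = 0.547), Brd9 (0.71, adjusted p = 0.334) and Rcor3 (1.10, adjusted p = 0.114). Between conditioned and control libraries at 6 h none of the 5 lists had a gene that passed. The smallest p belonged there to Sirt3 (1.11), Arid4b (-1.27), Kat6a (-0.36), Ywhag (0.74) and Brd7 (-0.64), with adjusted p-values of 0.911 to 0.921.

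Over 7 samples, with the conditioned 1 h pair averaged, log2 CPM ranged most widely in Hdac5 (3.11) and Hdac3 (1.97) and least in Hdac8 (0.63). The genes whose log2 CPM was most like that of Hdac5 over these 7 samples, of 10440 candidates, were Abcg4 (Pearson r = 0.9994), Sema6b (0.9978) and H2ac13 (0.9978), a histone gene with near-identical copies whose reads may be shared. Those most like Hdac3 were Klhdc3 (0.9952), Cog4 (0.9948) and 2410002F23Rik (0.9927). So close a likeness was common: 1534 candidates had r over 0.9 with Hdac5 and 1431 with Hdac3. These values are descriptions and share the depth and composition of the same libraries.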

How the data were processed

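The members and gene lists were chosen with earlier results of these data known. Ribosomal RNA was depleted before reverse transcription from hexamers and poly A primers, SPIA amplification and PCR, per the labels' protocols. The authors deposited raw, whole-number read counts for RefSeq transcripts. The submitters' processing notes name mm9 as the build and the tools TopHat 1.3.1, CASAVA 1.7, limma 3.12.3 and edgeR 2.612, without their roles. The treatment of reads shared between transcripts and of strand is not stated in these sources.

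Identifiers were matched to symbols, GC content and length through RefSeq and GENCODE tables of GRCm38, and 98.1% of 27304 distinct identifiers had a symbol. The 594 rows without one held 1.19% to 1.99% of a library's counts. Tests ran in R 4.3.3 with edgeR 4.0.16: the quasi-likelihood test, robust, with TMM factors, the default filter on low counts, and Benjamini-Hochberg adjustment over all rows at 0.05. The model held tissue, time and training over 6 libraries and left 2 residual degrees of freedom. The time effect rests on the 4 controls and the training effect on the 4 libraries of 6 h. The GC and length trend was a loess fit per library (span 0.3) entered as offsets. Ratios of single libraries have exact intervals at 95%, for counting error only, since PCR copies without molecular identifiers are not independent. All 10 members are named. For the 2 of widest range, the 3 genes of highest Pearson r with a mean log2 CPM of at least 2 are named, and per list the 2 largest rises and falls that passed, or the gene of smallest p. Genes beyond this rule, chosen after their values were seen, are Mef2a, Ncor1, Mbd2 and the neuronal and glial markers. The edgeR fit and the GC and length offsets were tested on simulated counts, and the other steps were not.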

Additional observations from a re-analysis of the deposited data

Results flagged for a closer look

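In the 6 h libraries, 2 values stood apart from the other 3 of their group by more than Dixon's critical value at 95% for 4 samples. Hdac9 had 210.1 CPM in the hippocampus control 6 h library, where the other 3 libraries had 120.5 to 132 CPM, a gap of 0.87 of the whole range. Hdac7 had 3.47 CPM in the hippocampus conditioned 6 h library, from 15 counts, where the other 3 had 1.71 to 1.93 CPM, a gap of 0.879 of the range. Of groups of this size, 20 were examined, namely the 6 h libraries and the control libraries of each member. The 6 h groups mix tissues and training, and the control groups mix tissues and times. They also share libraries, so the rate of about 1 in 20 that chance flags among replicates need not apply to them.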

How the results depend on the processing

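No paired analysis was possible because no replicate numbers pair the libraries, with 1 in each combination of tissue, training and time; the model already compares the tissues within the 3 conditions that it holds. In hippocampus against cortex, 600 rows passed, against 921 with no filter on low counts, 0 with all 8 libraries as labelled, 981 with the GC and length trend removed, 337 with the rows of a gene summed, 347 without the training term, and 1072 with the conditioned 1 h pair summed and the trend removed, an alternative chosen after seeing the data. Leaving out 1 library at a time gave 200 to 874 rows and 0 members. The change of Hdac9 was -0.01 with upper-quartile factors, 0 with no filter, -0.01 with the stricter filter, -0.22 with the trend removed and -0.21 with the pair added and the trend removed, and that of Hdac2 was -0.1 under each of these last 2. Leaving out 1 library turned the sign for 7 members, whose log2 changes ranged from -0.03 to 0.22 (Hdac2), -0.67 to 0.02 (Hdac3), -0.52 to 0.13 (Hdac4), -0.97 to 0.14 (Hdac5), -0.43 to 0.11 (Hdac6), -0.07 to 0.51 (Hdac7) and -0.37 to 0.31 (Hdac9).

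Between 6 h and 1 h, 3749 rows and 2 members passed, against 6916 rows and 6 members with all 8 libraries, 6167 rows with the pair summed, 735 rows and 0 members with the trend removed, 2392 rows and 1 member with rows summed, 774 rows and 0 members without the training term, and 1606 rows and 0 members with the pair summed and the trend removed. Leaving out 1 library gave 0 to 6966 rows and 0 to 5 members, the lowest with the hippocampus control 1 h library left out and the highest with the cortex control 6 h library left out. With that cortex library left out, the hippocampus control library was the sole 6 h control. The fit of all 8 libraries enters the conditioned 1 h pair as separate libraries, although the pair was counted as 1 sample elsewhere. The share of calls that were higher moved to 74.1% with the trend removed, from 545 higher and 190 lower rows. Upper-quartile factors shifted the median of all rows to -0.17, and Hdac5 at -2.11 and Hdac11 at -1.33 were both still called. Hdac9 was at -0.25 with the trend removed and at -0.3 with the pair added, where Hdac7 was at 0.05. Hdac5 was negative in all 17 alternatives and called in 12, and Hdac11 negative in all 17 and called in 10.

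In conditioned against control at 6 h, 0 rows passed in all alternatives except 2 that left out a library: 1 row without the cortex conditioned library, and 2067 rows and 1 member, Hdac5, without the cortex control library (range 0 to 2067 rows, 0 to 1 member). Without the cortex control library, the hippocampus control library was the sole 6 h control left. With the trend removed Hdac2 was at 0.02, Hdac4 at -0.01 and Hdac6 at -0.07, and with the pair added as well Hdac2 was at 0.01, Hdac4 at -0.03, Hdac7 at -0.08 and Hdac9 at 0.05. Leaving out 1 library gave -0.56 to 0.64 for Hdac4, -0.18 to 0.38 for Hdac6 and -0.91 to 0.18 for Hdac9. Of the 10 members, 6 kept their rank by level with the mean over 8 libraries, 1 with CPM not divided by length and 6 with rows summed. Apart from the settings named as smaller fits, the cause of these differences was not tested. Depth limits Hdac7 and Hdac8, at 20 or fewer counts per library.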
